A study of Mus musculus with 21 samples.

Results

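Deletion of Ikzf1, the gene of the transcription factor Ikaros, was examined in mouse natural killer (NK) cells grown in interleukin 15 (IL-15) by comparing their messenger RNA with that of Cre only cells from the same kind of culture. The comparison was made over 9527 of the 11736 genes in the deposited table, those with a value of 1 RPKM or more in at least 3 of the 8 libraries compared. RPKM is a read count per kilobase of gene, scaled to library size, so its levels can be set side by side between genes. Both groups came from spleen and were sorted as NK cells. After the sort they were kept in medium with serum and 50 ng/ml of recombinant human IL-15. Ikzf1 KO cells came from mice with a conditional deletion of Ikzf1 in NK cells, and control cells from mice that carried only the Cre recombinase. The promoter that drives Cre, the ages of the mice and the days of culture are not given in the sources used here. The labels speak of biological replicates, without saying whether each is a separate mouse, so p-values measure the spread between these libraries. The study also holds cultured Ikzf3 KO cells (4 libraries) and cells without both genes (DKO, 3 libraries), which serve here only for values set side by side.

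Ikaros is a zinc finger protein that binds DNA at sites with the core GGGAA. It works with chromatin complexes, among them the NuRD nucleosome remodelling and deacetylase complex, and is known in lymphocytes both for keeping genes silent and for keeping genes active. Its relatives are Helios (Ikzf2), Aiolos (Ikzf3), Eos (Ikzf4) and Pegasus (Ikzf5), which can pair with it through their last zinc fingers. NK cells are innate lymphocytes that kill virus-infected and tumour cells with perforin and granzymes, after signals from activating and inhibitory receptors. IL-15 keeps them alive and dividing through the receptor chains shared with interleukin 2, the kinases JAK1 and JAK3 and the factor STAT5.

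The Cre only libraries are S16, S17, S18 and S19 and the Ikzf1 KO libraries S12, S13, S14 and S15, and values per library are given in this order. The column names state the genotype and not the culture, and 4 columns of each genotype match only the cultured groups. Depth, recovered from the steps between values, ran from 11.12 to 20.97 megareads. The Cre only libraries formed pairs: on the log2 scale the correlation over genes was 0.993 between S16 and S17 and 0.987 between S18 and S19, against 0.961 to 0.974 across the pairs. Ikzf1 KO libraries correlated with each other at 0.981 to 0.995, and with Cre only libraries at 0.951 to 0.972. No label sets these pairs apart. S15 correlated with S18 and S19 at 0.963 and 0.972, its highest values with Cre only libraries. Many of the counts and changes below are therefore also given without either pair, with all 15 libraries of the table in the fit, and with a term for S15, S18 and S19 in the fit, where one of these moves them by over 1.5 times or changes a call. Of 15 markers that define NK cells, 14 passed the filter and Il2rb was not analysed here. None of these rose and 6 fell (Prf1, Tyrobp, Nkg7, Itga2, Cd7 and Klrb1c), so 42.9% changed, against 20.2% over all genes. Their summed level ran from 12276 to 16105 RPKM in Cre only and from 12405 to 13319 RPKM in Ikzf1 KO libraries. Among them Ncr1, encoding the NK receptor NKp46, stood at 147 ± 38.1 RPKM in Cre only and 112 ± 8.12 RPKM in Ikzf1 KO cells, and the lineage factors Eomes and Tbx21 (T-bet) at 53.5 ± 3.84 and 60.0 ± 7.03 RPKM in Cre only and 47.5 ± 2.42 and 61.7 ± 4.56 RPKM in Ikzf1 KO cells. Falls among NK defining markers numbered 2 with all 15 libraries in the fit. Here and below, levels are means ± SD over 4 libraries.

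The deleted gene was lower in every Ikzf1 KO library, without reaching 0. Ikzf1 (ENSMUSG00000018654, chromosome 11, positions 11685003 to 11772926, plus strand of mm10) was found at 57.7, 59.3, 61.1 and 69.4 RPKM in the Cre only libraries and 19, 19.9, 18.3 and 19.3 RPKM in the Ikzf1 KO libraries. The lowest Cre only library was above the highest Ikzf1 KO library, and the Ikzf1 KO libraries lay close together. On the scale log2(RPKM + 0.5), on which low genes appear to change less than they did, the change was -1.67 ± 0.07 (SE; limma with Benjamini-Hochberg adjustment, adjusted p = 1.29e-05). The value covers the whole gene, so reads from exons that were not deleted count in it. Of the other family members, Eos (Ikzf4) rose, at 1.87, 1.75, 1.39 and 1.83 RPKM in the Cre only libraries and 5.95, 4.98, 5.44 and 5.76 RPKM in the Ikzf1 KO libraries, a change of 1.45 ± 0.10 (adjusted p = 8.31e-05). No Ikzf1 KO library overlapped a Cre only library at this gene. Helios (Ikzf2) stood at 3.26, 2.84, 0.882 and 0.664 RPKM in the Cre only libraries and 3.87, 4.04, 4.3 and 2.63 RPKM in the Ikzf1 KO libraries and did not pass (0.97 ± 0.38, adjusted p = 0.0974). Its Cre only values split by pair, with S18 and S19 below all Ikzf1 KO libraries and S16 and S17 above S15. Without S16 and S17 its change was 1.71. Aiolos (Ikzf3) stood at 41.8 ± 3.68 RPKM in Cre only and 48.3 ± 1.52 RPKM in Ikzf1 KO cells (0.21 ± 0.08, adjusted p = 0.0789), and Ikzf5 was below the filter at 0.411 ± 0.0972 and 0.396 ± 0.0737 RPKM. Of the 16 tested genes of NuRD and other Ikaros corepressors, Ctbp2, encoding a corepressor, rose from 2.59 ± 0.656 to 5.08 ± 0.473 RPKM and the other 15 did not pass. In this list 6.25% changed, against 20.2% over all genes. Rises among corepressor genes numbered 3 without S19 or with a term for S15, S18 and S19 and 4 with S18 and S19 both left out. Ikzf2 passed without S16, without S16 and S17 or with a term for S15, S18 and S19, and Ikzf3 after quantile normalization or without S16 and S17 (adjusted p down to 0.00088).

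Over all genes, 1927 of 9527 changed (20.2%) at an adjusted p below 0.05. Of these, 882 were higher in Ikzf1 KO cells (9.26% of those tested) and 1045 lower (11%). List counts below are to be read beside these shares over all genes. The median change over all tested genes was -0.006 on the log2 scale, and the median size of a called change was 0.57. Changes of 1 or more on this scale numbered 188 rises and 145 falls, and changes of 2 or more 29 rises and 15 falls. In 2374 genes (24.9%) the libraries of the groups did not overlap, and 1742 of the called genes were among them. In bulk RNA, fewer cells of a type and less RNA per cell cannot be told apart, and this holds for every change below. The number of calls rested on the spread and on single libraries. It was 1089 without S12, 1143 without S13 and 1018 without S14, and 602 when the spread was taken from all 15 libraries of the table. Without S16 and S17 the share of genes called was 8.48% higher and 11% lower, and without S18 and S19 it was 15.1% higher and 14.9% lower. Called under every setting in which they could be tested were 238 of the higher and 246 of the lower genes, and no gene was called in the opposite direction under any setting.

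**Figure D1:**
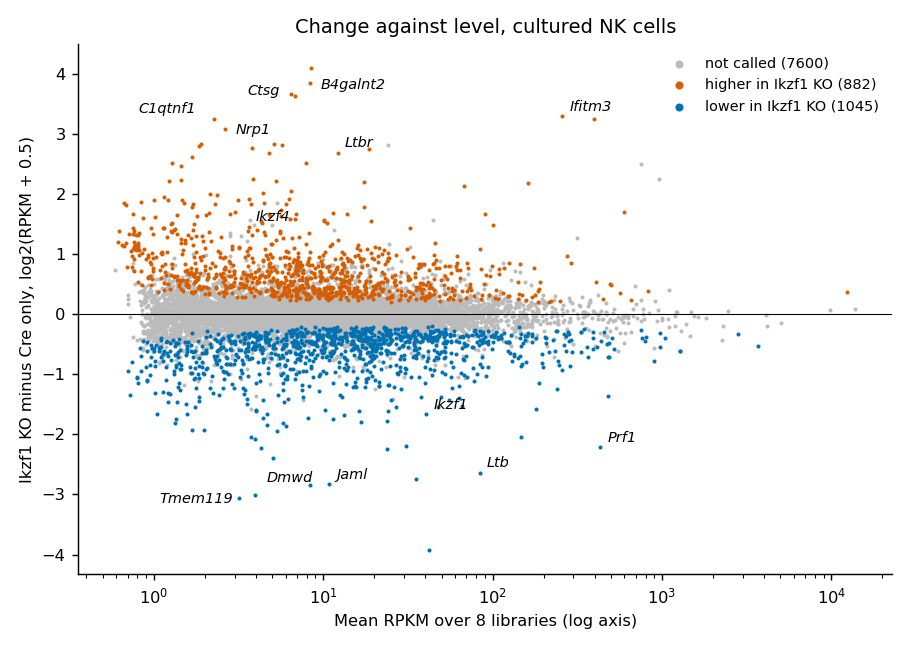
Change against level for the 9527 tested genes. The horizontal axis is the mean RPKM over the 8 libraries (log axis) and the vertical axis the difference of mean log2(RPKM + 0.5), Ikzf1 KO minus Cre only. Orange points are the 882 genes called higher, blue points the 1045 called lower and grey points those not called, and named points include Ifitm3 and Prf1, which stand out at high levels.

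The promoters of the genes with the largest changes are shown because the core site of Ikaros, GGGAA, can be looked for in them. These are the first 3 rises and the first 3 falls by the naming rule with an entry in the RefSeq promoter table (GRCm38.p6). Entries were not found for Tmem119, Tgm2 and Mmp9. Each sequence is the 250 bases before the start that RefSeq gives, which can lie some bases from the GENCODE gene start in the positions printed with each gene, 5′ to 3′ on the strand of the gene, with GGGAA or its reverse complement TTCCC in capitals.
B4galnt2, which rose (chr11:95914872-95915121, minus strand): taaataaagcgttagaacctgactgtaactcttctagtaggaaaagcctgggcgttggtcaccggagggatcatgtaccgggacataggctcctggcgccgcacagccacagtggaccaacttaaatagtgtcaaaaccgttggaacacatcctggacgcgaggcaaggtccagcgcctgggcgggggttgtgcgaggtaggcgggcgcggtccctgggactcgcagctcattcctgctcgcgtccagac
Ctsg, which rose (chr14:56102575-56102824, minus strand): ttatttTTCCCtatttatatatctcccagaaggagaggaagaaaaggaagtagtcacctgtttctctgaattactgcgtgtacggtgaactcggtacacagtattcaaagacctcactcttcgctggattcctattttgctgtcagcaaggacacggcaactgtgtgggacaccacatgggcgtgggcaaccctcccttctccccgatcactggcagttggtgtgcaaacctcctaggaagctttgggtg
Cma1, which rose (chr14:55944676-55944925, minus strand): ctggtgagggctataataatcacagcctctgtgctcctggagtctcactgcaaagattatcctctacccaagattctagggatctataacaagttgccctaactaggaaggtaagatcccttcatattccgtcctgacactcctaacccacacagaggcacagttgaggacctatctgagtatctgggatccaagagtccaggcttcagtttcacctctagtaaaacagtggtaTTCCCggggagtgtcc
Dmwd, which fell (chr7:19075950-19076199, plus strand): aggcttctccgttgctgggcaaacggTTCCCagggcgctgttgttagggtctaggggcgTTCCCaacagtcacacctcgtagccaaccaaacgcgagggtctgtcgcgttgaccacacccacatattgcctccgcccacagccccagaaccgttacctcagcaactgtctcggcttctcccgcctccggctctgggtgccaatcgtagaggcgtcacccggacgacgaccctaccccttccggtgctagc
Jaml, which fell (chr9:45078933-45079182, plus strand): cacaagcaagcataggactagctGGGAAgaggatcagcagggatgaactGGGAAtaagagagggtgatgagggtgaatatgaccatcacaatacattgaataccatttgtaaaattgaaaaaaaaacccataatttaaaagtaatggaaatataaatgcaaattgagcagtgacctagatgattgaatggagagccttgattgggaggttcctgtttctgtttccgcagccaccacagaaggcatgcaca
Ltb, which fell (chr17:35194257-35194506, plus strand): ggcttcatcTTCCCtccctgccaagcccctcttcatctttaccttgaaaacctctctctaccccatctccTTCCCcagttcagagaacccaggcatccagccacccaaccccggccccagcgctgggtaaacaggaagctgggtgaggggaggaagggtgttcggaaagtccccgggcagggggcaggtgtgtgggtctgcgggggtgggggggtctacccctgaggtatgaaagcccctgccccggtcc

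The Dmwd, Jaml and Ltb windows held 2 matches each, the Ctsg and Cma1 windows 1 each and the B4galnt2 window 0. A match was common everywhere: counted on both strands, GGGAA stood in 56.2% of all 32851 windows of the table and in 58.7% of the 9267 windows of tested genes. It was found in 60.8% of 826 windows of genes called higher, 59.3% of 1049 windows of genes called lower and 58.4% of 7392 windows of genes not called. The longer TGGGAA, which contains GGGAA, stood in 21.6% of all windows, in 24% of those of genes called higher, 20.3% of those of genes called lower and 19.5% of those not called. Of the 15 largest falls, 11 genes had windows (14), and of the 15 largest rises, 10 genes (12). GGGAA stood in 64.3% of these windows for falls and 58.3% for rises, against 58.7% for tested genes. The longer TGGGAA stood in 50% of the windows for falls and in 0 for rises. These sets are small, and the difference was not tested. Several genes have more than 1 window. A match is a run of letters and no measure of binding.

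Several of the largest rises were of genes near 0 in Cre only cells. B4galnt2 (ENSMUSG00000013418, chromosome 11, positions 95865943 to 95914891, minus strand) encodes a glycosyltransferase that adds N-acetylgalactosamine to glycans at the cell surface. It was measured at 0.803, 1.07, 0.345 and 0.426 RPKM in the Cre only libraries and 18.1, 15.5, 18.8 and 11.4 RPKM in the Ikzf1 KO libraries, a change of 3.85 ± 0.22 (adjusted p = 3.36e-05). Every Ikzf1 KO library was far above every Cre only library. Ctsg (ENSMUSG00000040314, chromosome 14, positions 56099881 to 56102574, minus strand), the gene of the serine protease cathepsin G, stood at 0.736, 1.12, 0.288 and 0.0592 RPKM in the Cre only libraries and 10.6, 18.1, 12.8 and 7.96 RPKM in the Ikzf1 KO libraries, a change of 3.67 ± 0.34 (adjusted p = 0.000312). The nearby Cma1 (ENSMUSG00000022225, chromosome 14, positions 55941451 to 55944675, minus strand), the gene of a chymase, stood at 0.127, 0.935, 0.886 and 0.393 RPKM in the Cre only libraries and 13.6, 19.8, 12.2 and 6.85 RPKM in the Ikzf1 KO libraries, a change of 3.64 ± 0.34 (adjusted p = 0.000328). In both genes S13 was the highest and S15 the lowest Ikzf1 KO library, still far above Cre only cells. Nrp1 (ENSMUSG00000025810, chromosome 8, positions 128358604 to 128503363, plus strand), encoding a co-receptor for semaphorins and vascular growth factors, stood at 0.262, 0.403, 0.0304 and 0.0125 RPKM in the Cre only libraries and 5.42, 5.18, 5.05 and 4.74 RPKM in the Ikzf1 KO libraries, a change of 3.09 ± 0.19 (adjusted p = 4.33e-05). Its Ikzf1 KO values hardly varied, while the Cre only values were low throughout and lowest in S18 and S19.

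Of the other large rises, Ifitm3 and Khdc1a began from a higher level in Cre only cells. Lzts2, Fgd5 and Plxdc2 began low there. Ifitm3 (ENSMUSG00000025492, chromosome 7, positions 141009586 to 141010770, minus strand), an interferon-induced membrane protein that restricts virus entry, stood at 72.5, 94.5, 31.8 and 20.8 RPKM in the Cre only libraries and 474, 539.7, 459.6 and 372 RPKM in the Ikzf1 KO libraries, a change of 3.29 ± 0.42 (adjusted p = 0.00137). S16 and S17 were above S18 and S19, and the highest Cre only value was still well below the lowest Ikzf1 KO value. Ltbr, the lymphotoxin beta receptor, split the Cre only pairs, at 5.41, 9.07, 0.915 and 0.858 RPKM, against 20.2, 19.1, 19.9 and 22.1 RPKM in Ikzf1 KO libraries (2.69 ± 0.59, adjusted p = 0.0137). Lzts2 rose from 1.05 ± 0.276 to 10.4 ± 2.18 RPKM and Fgd5, encoding an exchange factor for the GTPase Cdc42, from 1.17 ± 1.27 to 9.08 ± 1.11 RPKM. Khdc1a rose from 5.02 ± 3.1 to 32.5 ± 8.1 RPKM and Plxdc2, encoding a membrane protein with a plexin-like domain, from 1.02 ± 0.70 to 8.52 ± 1.02 RPKM. The naming rule asks for a mean of 5 RPKM or more in the higher group. It also takes only genes without overlap between the groups, for falls as well as rises. By this rule the 15 largest rises ranged from 3.85 down to 2.21. Ltbr changed by 3.91 without S16 and S17 and by 1.47 without S18 and S19. Ifitm3 changed by 4.13 and 2.46 in the same fits. One gene under that level had the smallest p of all and was picked after its values were seen: C1qtnf1, encoding a secreted protein of the C1q and tumour necrosis factor family, stood at 0.0221, 0.0434, 0.0237 and 0.0195 RPKM in the Cre only libraries and 4.14, 4.22, 4.94 and 4.81 RPKM in the Ikzf1 KO libraries, a change of 3.25 ± 0.10 (adjusted p = 1.44e-06). Eng (endoglin), an accessory receptor of the TGF-beta family and likewise picked afterwards, rose from 0.0881 ± 0.115 to 3.71 ± 0.90 RPKM (2.83 ± 0.20, adjusted p = 8.92e-05).

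**Figure D2:**
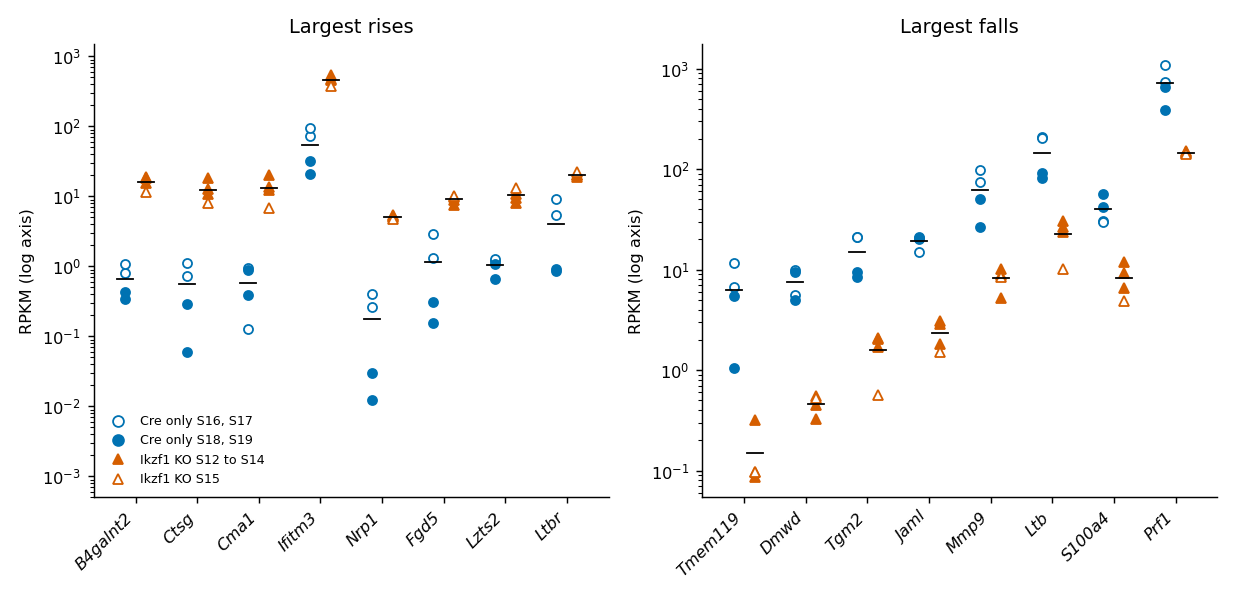
RPKM of each library for 8 of the largest rises (left) and 8 of the largest falls (right), on log axes. Circles are Cre only libraries (open for S16 and S17, filled for S18 and S19) and triangles Ikzf1 KO libraries (open for S15), and short lines are group means. The naming rule took only genes in which the libraries of the groups do not overlap, so this holds for all 16 by selection. S16 and S17 lie above S18 and S19 at all of them but Cma1, Dmwd, Jaml and S100a4.

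The granzyme and chymase cluster on chromosome 14, read after the values of Ctsg and Cma1 were seen, did not move as a block. Between Cma1 and Gzmb (positions 55941451 to 56262260), 12 genes of the table lie within 321 kb, 10 of them tested, 4 called higher and none lower. At one end Cma1 and Ctsg rose from near 0, and at the other Gzmb and Gzmc, granzyme genes at very high levels, stood at 9523 ± 1319 and 13851 ± 5199 RPKM in Cre only and 9986 ± 429 and 13905 ± 1939 RPKM in Ikzf1 KO cells, with changes of 0.08 ± 0.10 (adjusted p = 0.611) and 0.08 ± 0.27 (adjusted p = 0.853). Between these, Gzmg stood at 93.5, 202, 59.6 and 8.41 RPKM in the Cre only libraries and 701, 1123, 849 and 124 RPKM in the Ikzf1 KO libraries, a change of 3.25 ± 0.99 (adjusted p = 0.049), with S15 below the highest Cre only library. Mcpt8, Gzme, Gzmd and Gzmf had changes of 1.57, 2.50, 2.25 and 2.81 and did not pass, with adjusted p of 0.0663, 0.0669, 0.0817 and 0.0524. Gzmd, Gzme, Gzmf and Gzmg are closely related in sequence, so reads may have been divided among them. Gzmg (without S12, S13, S14, S16, S18 or S19) did not pass when 1 library was left out (adjusted p up to 0.124). Gzmg did not pass with all 15 libraries in the fit (adjusted p = 0.0782). Gzmg did not pass with a pseudocount of 0.1 or among genes with a mean of 5 RPKM or more or without S16 and S17 or without S18 and S19 either (adjusted p up to 0.208). Gzmg changed by 1.96 without S18 and S19. All of Mcpt8, Gzme, Gzmd and Gzmf passed without S17 (adjusted p from 0.0402 to 0.0478), without S16 and S17 (0.00345 to 0.0473) and with the term for S15, S18 and S19 (0.0172 to 0.0371). On chromosome 13, Gzma, the granzyme A gene, rose, at 11749, 10819, 11394 and 9506 RPKM in the Cre only libraries and 13247, 14656, 15348 and 12673 RPKM in the Ikzf1 KO libraries (0.36 ± 0.09, adjusted p = 0.022). Gzma (without S13 or S14) did not pass when 1 library was left out (adjusted p up to 0.0724). Gzma did not pass with all 15 libraries in the fit (adjusted p = 0.577). Gzma did not pass after quantile normalization (adjusted p up to 0.669). Gzma changed by 0.08 after quantile normalization.

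The largest falls included genes of adhesion, lymphotoxin signalling and killing. Dmwd (ENSMUSG00000030410, chromosome 7, positions 19076227 to 19082776, plus strand), encoding a WD repeat protein, was measured at 5.6, 9.94, 9.44 and 5.03 RPKM in the Cre only libraries and 0.554, 0.323, 0.446 and 0.522 RPKM in the Ikzf1 KO libraries, a change of -3.01 ± 0.22 (adjusted p = 8.92e-05). Jaml (ENSMUSG00000048534, chromosome 9, positions 45079183 to 45108534, plus strand), a junctional adhesion protein of leukocytes, stood at 21.1, 15, 20.1 and 20.7 RPKM in the Cre only libraries and 1.8, 3.11, 2.89 and 1.52 RPKM in the Ikzf1 KO libraries, a change of -2.83 ± 0.20 (adjusted p = 8.31e-05). At both genes the lowest Cre only library lay several times above the highest Ikzf1 KO library. Tgm2 (ENSMUSG00000037820, chromosome 2, positions 158116402 to 158146436, minus strand), a transglutaminase that cross-links proteins, stood at 21.2, 21, 9.56 and 8.35 RPKM in the Cre only libraries and 1.71, 2.04, 2.08 and 0.569 RPKM in the Ikzf1 KO libraries (-2.85 ± 0.38, adjusted p = 0.00167), and Mmp9 (ENSMUSG00000017737, chromosome 2, positions 164940780 to 164955850, plus strand), a metalloproteinase that degrades matrix, at 74.4, 97.7, 50.2 and 26.8 RPKM in the Cre only libraries and 10.1, 5.25, 8.8 and 8.48 RPKM in the Ikzf1 KO libraries (-2.74 ± 0.36, adjusted p = 0.00167). Both were higher in S16 and S17 than in S18 and S19, and S19 was the lowest Cre only library in each. Tmem119, a membrane protein gene, fell from 6.21 ± 4.36 to 0.15 ± 0.114 RPKM with a wide spread in Cre only cells, where S19 stood at 1.06 RPKM. The uridine phosphorylase gene Upp1 and Rgs16, encoding a regulator of G protein signalling, fell from 6.64 ± 0.885 to 1.32 ± 0.711 RPKM and from 9.84 ± 3.75 to 2.27 ± 0.771 RPKM. Pglyrp1, a peptidoglycan recognition protein, stood at 46.3, 41.4, 60.6 and 55.9 RPKM in the Cre only libraries and 11.6, 9.21, 11.1 and 10.7 RPKM in the Ikzf1 KO libraries, a change of -2.20 ± 0.13 (adjusted p = 3.36e-05), with no overlap between groups. The change of Tmem119 was between -3.64 (without S19) and -2.66 (without S17) when any 1 library was left out.

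Lymphotoxin beta and its receptor moved in opposite directions. Neighbouring genes are compared here and below after their values were seen. The ligand gene Ltb (ENSMUSG00000024399, chromosome 17, positions 35194439 to 35196320, plus strand), whose product holds lymphotoxin alpha at the cell surface, stood at 208, 202, 81.8 and 91.1 RPKM in the Cre only libraries and 23.6, 26.3, 30.1 and 10.1 RPKM in the Ikzf1 KO libraries, a change of -2.64 ± 0.41 (adjusted p = 0.00318). The Cre only pairs differed, S16 and S17 being the higher, but all were above all Ikzf1 KO libraries. Lta fell from 2.81 ± 1.12 to 1.11 ± 0.137 RPKM and the adjacent Tnf, the gene of tumour necrosis factor, from 9.51 ± 2.83 to 4.17 ± 0.788 RPKM (-1.07 ± 0.21, adjusted p = 0.00901), with Ltb and Tnf within 8 kb on chromosome 17. On chromosome 6, 130 kb hold Cd27, Ltbr and Tnfrsf1a, all genes of the tumour necrosis factor receptor family, with Cd27 falling and Ltbr and Tnfrsf1a rising. Cd27, which marks NK cells early in maturation, stood at 7.99, 7.36, 5.2 and 4.83 RPKM in the Cre only libraries and 1.27, 1.42, 1.38 and 0.611 RPKM in the Ikzf1 KO libraries, a change of -2.04 ± 0.21 (adjusted p = 0.00054). Tnfrsf1a, the first tumour necrosis factor receptor, rose from 49.5 ± 1.85 to 59.3 ± 3.73 RPKM, and Tnfrsf1b, the second, fell from 81.5 ± 6.3 to 56.5 ± 3.18 RPKM. Lta (without S12, S13 or S16) and Tnfrsf1a (without S12, S14, S16 or S18) did not pass when 1 library was left out (adjusted p up to 0.0887). Lta, Tnf, Tnfrsf1a and Tnfrsf1b did not pass with all 15 libraries in the fit (adjusted p from 0.0529 to 0.25). Lta without S16 and S17 and Tnfrsf1a without S18 and S19 did not pass either (adjusted p up to 0.0759). Lta changed by -0.60 without S16 and S17.

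Of the S100 genes, small calcium-binding proteins in a row on chromosome 3, neighbours moved apart. S100a4 stood at 30.4, 30.0, 56.5 and 41.7 RPKM in the Cre only libraries and 6.5, 12, 9.29 and 4.87 RPKM in the Ikzf1 KO libraries (-2.24 ± 0.28, adjusted p = 0.00131) and S100a6 at 189, 239, 318 and 194 RPKM in the Cre only libraries and 53.4, 83.8, 69.4 and 30.4 RPKM in the Ikzf1 KO libraries (-2.04 ± 0.30, adjusted p = 0.00249). At each gene all Cre only libraries were above all Ikzf1 KO libraries, of which S15 was the lowest. S100a1, within 113 kb of both, rose, at 25.9, 22.5, 34.5 and 29.2 RPKM in the Cre only libraries and 59.7, 60.5, 64.3 and 69.7 RPKM in the Ikzf1 KO libraries (1.18 ± 0.12, adjusted p = 0.000518), and S100a13 between them did not pass (-0.26 ± 0.12, adjusted p = 0.151). Over the list of S100 proteins, annexins and galectins, 1 of 16 tested genes rose and 6 fell, with a median change of -0.26 against -0.006 over all genes. Anxa2, a membrane-binding annexin, fell from 330.2 ± 23.3 to 215 ± 23.7 RPKM, and S100a11 from 407 ± 58.3 to 262 ± 21.3 RPKM. Anxa2 did not pass with all 15 libraries in the fit (adjusted p = 0.102). S100a13 passed without S16 and S17 (adjusted p down to 0.00939). Falls among S100, annexin and galectin genes numbered 3 with all 15 libraries in the fit.

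Within the killing machinery perforin had the largest fall among the granule genes tested. Prf1 (ENSMUSG00000037202, chromosome 10, positions 61297833 to 61304680, plus strand), the pore-forming protein that lets granzymes into target cells, stood at 740.3, 1095, 654 and 390.2 RPKM in the Cre only libraries and 150.4, 144, 146 and 141 RPKM in the Ikzf1 KO libraries, a change of -2.21 ± 0.26 (adjusted p = 0.000905). Ikzf1 KO libraries were nearly identical, while Cre only values spanned from S19, the lowest, to S17. Of 24 tested genes of cytotoxic granules, 7 fell, 2 rose (Gzma and Gzmg) and 15 did not pass, and the median was -0.07. Falls among granule genes numbered 1 with all 15 libraries in the fit and 4 with S16 and S17 both left out. Rises among granule genes numbered 0 without S13 or S14 or with all 15 libraries in the fit, 1 without S12 or S16, 4 without S19 or with S16 and S17 both left out or with S18 and S19 both left out, 5 without S17 and 7 with a term for S15, S18 and S19. The other falls were small. Nkg7, a granule membrane protein gene, went from 1190 ± 42.2 to 903 ± 46.8 RPKM, and Ctsc, the protease that activates granzymes, from 41.8 ± 1.83 to 33 ± 0.745 RPKM. Unc13d, needed to prime granules for release, went from 35.9 ± 3.22 to 26.1 ± 1.89 RPKM. Among cathepsins, Ctsw fell from 491 ± 40.2 to 338 ± 41.4 RPKM and Ctsd, the lysosomal cathepsin D, from 265 ± 46.9 to 169 ± 8.01 RPKM. Serpinb9, an inhibitor that protects killer cells from granzyme B, fell from 201 ± 38.4 to 114 ± 14.6 RPKM. Nkg7, Ctsc, Unc13d, Ctsw and Serpinb9 did not pass with all 15 libraries in the fit (adjusted p from 0.0707 to 0.169).

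Of 24 tested genes of activating receptors and their adaptors, 9 fell, Cd226 rose and 14 did not pass, with a median of -0.46. Lat2, an adaptor that links receptors to downstream signalling, stood at 21.8, 24.4, 27.3 and 23.9 RPKM in the Cre only libraries and 10.7, 10.2, 10.4 and 13.9 RPKM in the Ikzf1 KO libraries, a change of -1.08 ± 0.11 (adjusted p = 0.000486). Tyrobp (DAP12), the adaptor that couples several activating receptors to kinases, stood at 1036, 1122, 1308 and 1068 RPKM in the Cre only libraries and 627, 632, 637 and 731 RPKM in the Ikzf1 KO libraries, a change of -0.78 ± 0.09 (adjusted p = 0.000864). At both genes S15 was the highest Ikzf1 KO library and no library crossed over. Cd247 (the zeta chain) fell from 21.5 ± 4.79 to 10.1 ± 2.87 RPKM, and Hcst (DAP10), the adaptor of NKG2D, from 150.1 ± 19.2 to 97.3 ± 3.55 RPKM. Cd244a (2B4) fell from 87.1 ± 15.9 to 43.6 ± 3.51 RPKM and Cd2, an adhesion and costimulation receptor, from 17.9 ± 6.47 to 4.83 ± 0.938 RPKM. Cd226 (DNAM-1), a receptor for ligands on stressed cells, rose from 27.1 ± 6.43 to 43 ± 4.31 RPKM (0.68 ± 0.16, adjusted p = 0.0172). Ncr1, Fcgr3 and Klrk1, encoding NKp46, CD16 and NKG2D, did not pass, with changes of -0.35, -0.50 and 0.09. Cd226 (without S13 or S14) did not pass when 1 library was left out (adjusted p up to 0.0584). Tyrobp, Hcst, Cd2 and Cd226 did not pass with all 15 libraries in the fit (adjusted p from 0.0606 to 0.173). Cd226 changed by 0.43 without S18 and S19. Ncr1 passed with array weights, without S18 and S19 or with a term for S15, S18 and S19, and Fcgr3 without S17, without S16 and S17 or with a term for S15, S18 and S19 (adjusted p down to 0.00108). Falls among activating receptors and adaptors numbered 3 with all 15 libraries in the fit and 15 with a term for S15, S18 and S19.

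Ly49 receptors bind MHC class I and related proteins. Of 11 tested Ly49 genes 5 fell and none rose, with a median of -0.43. Falls among Ly49 genes numbered 1 with all 15 libraries in the fit, 2 without S13, S14, S16, S17 or S18 and 3 without S12 or with S16 and S17 both left out. Klra6 (Ly49F) stood at 22.3, 19, 11.2 and 10.1 RPKM in the Cre only libraries and 2.79, 6.73, 6.78 and 3.43 RPKM in the Ikzf1 KO libraries (-1.59 ± 0.33, adjusted p = 0.0114) and Klra8 (Ly49H), the activating receptor for a cytomegalovirus protein, at 196, 179.7, 221 and 164 RPKM in the Cre only libraries and 82, 107, 105 and 141 RPKM in the Ikzf1 KO libraries (-0.82 ± 0.16, adjusted p = 0.00807). Klra6 had its Cre only pairs apart, and Klra8 had S15 as the highest Ikzf1 KO library. Ly49 genes are similar in sequence, so reads may be shared between them. Of the 15 tested NKG2, NKR-P1 and KLRG1 genes, Klrg1, an inhibitory receptor of mature NK cells, rose from 13.5 ± 4.05 to 29 ± 5.14 RPKM (1.11 ± 0.21, adjusted p = 0.00776), Klrb1b rose from 62 ± 9.79 to 83.9 ± 10.2 RPKM, and Klrb1c, the gene of NK1.1, fell from 198 ± 18.6 to 143 ± 17 RPKM. In this list 20% changed, against 20.2% over all genes. Of 14 tested inhibitory checkpoint genes 5 fell, among them Lag3 from 96.3 ± 19.5 to 45.6 ± 5.21 RPKM and Cd69, an activation marker that holds cells in tissue, from 21.7 ± 5.84 to 9.11 ± 2.18 RPKM. Socs3, an inhibitor of cytokine signalling, rose from 3.6 ± 0.45 to 5.86 ± 0.773 RPKM. Falls among checkpoint genes numbered 2 with all 15 libraries in the fit, 3 without S12, S13, S14 or S18, 8 without S19 and 9 with a term for S15, S18 and S19. Klrb1b (without S12, S13, S14, S18 or S19) did not pass when 1 library was left out (adjusted p up to 0.119). Klra8, Klrb1b, Klrb1c and Socs3 did not pass with all 15 libraries in the fit (adjusted p from 0.0823 to 0.64). Klrb1b did not pass without the variance trend and robust moderation or without S18 and S19 either (adjusted p up to 0.133). Klrb1b changed by 0.25 without S18 and S19.

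**Figure D3:**
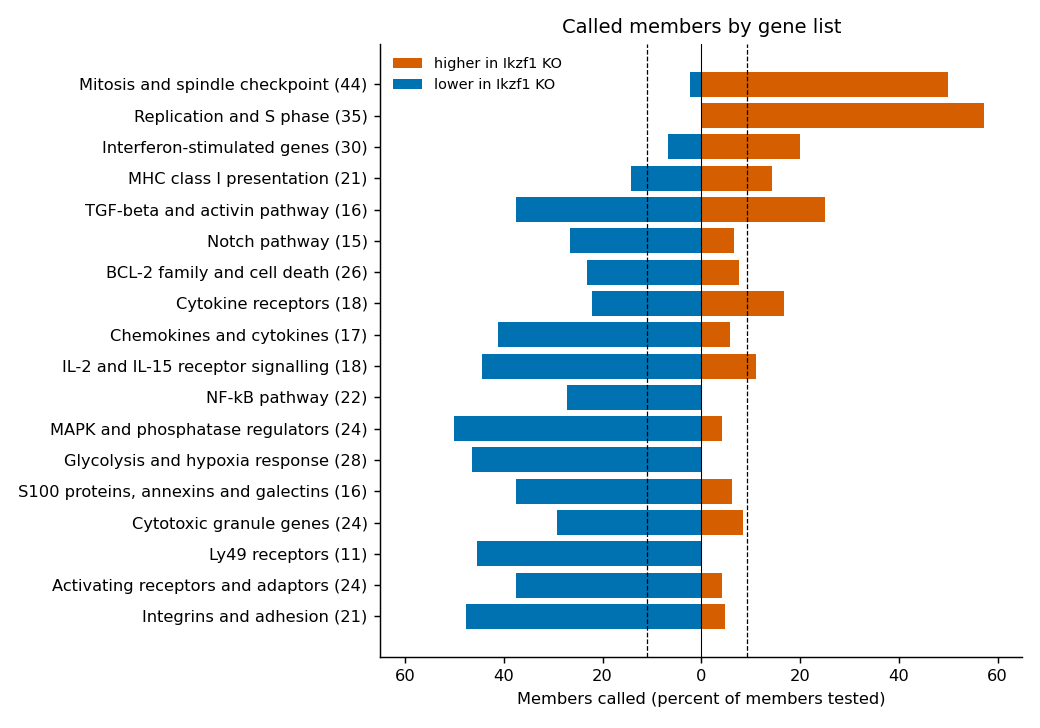
Members of 18 gene lists called higher (orange, to the right) and lower (blue, to the left) in Ikzf1 KO cells, as a share of the members tested in each list (horizontal axis, percent), with the number of tested members in brackets. Dashed lines mark the shares over all 9527 genes, 9.26% higher and 11% lower. Integrins and adhesion genes lie on the lower side and mitosis and replication genes on the higher side.

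Of 21 tested genes of integrins and adhesion, 10 fell, Itgb1 rose and 10 did not pass, with a median of -0.50. Alpha chains that pair with the leukocyte beta-2 integrin were among them. Itgal (CD11a), the alpha chain of LFA-1, stood at 164, 171, 167 and 203 RPKM in the Cre only libraries and 107, 94, 96.8 and 131 RPKM in the Ikzf1 KO libraries, a change of -0.72 ± 0.12 (adjusted p = 0.00388). Itgam (CD11b), a chain of mature NK cells, stood at 6.19, 7.59, 7.88 and 3.85 RPKM in the Cre only libraries and 1.65, 1.84, 1.85 and 1.42 RPKM in the Ikzf1 KO libraries (-1.61 ± 0.20, adjusted p = 0.00113), and Itgax (CD11c) fell from 91.3 ± 16.9 to 44.8 ± 7.06 RPKM. The shared beta chain Itgb2 fell from 310.2 ± 25.9 to 217 ± 17.8 RPKM. In Itgal and Itgb2 S15 was the highest Ikzf1 KO library. Itga2 (CD49b), a defining NK integrin, fell from 5.84 ± 2.68 to 2.2 ± 0.581 RPKM, and Itgb1, the partner of that chain, rose from 162 ± 22.3 to 210.0 ± 13.3 RPKM. The cadherin genes Cdh17 and Cdh1 fell from 7.46 ± 3.68 to 1.09 ± 0.128 RPKM and from 13 ± 6.16 to 3.21 ± 0.242 RPKM. Cd44, a receptor for hyaluronan, fell from 25.5 ± 1.1 to 18 ± 0.998 RPKM. Itga2 (without S12, S13, S14 or S18) and Itgb1 (without S13, S14, S15 or S18) did not pass when 1 library was left out (adjusted p up to 0.0867). Itgax, Itgb2, Itgb1, Cdh1 and Cd44 did not pass with all 15 libraries in the fit (adjusted p from 0.057 to 0.179). Itgb1 did not pass without S18 and S19 (adjusted p up to 0.0734). Itga2 changed by -0.60 without S18 and S19 and Itgb1 by 0.21 without S18 and S19. Falls among integrin and adhesion genes numbered 5 with all 15 libraries in the fit. Rises among integrin and adhesion genes numbered 0 without S13, S14 or S18 or with S18 and S19 both left out or with all 15 libraries in the fit, 2 without S17 or with S16 and S17 both left out and 3 without S15 or with a term for S15, S18 and S19.

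Of 14 tested receptors for egress and chemotaxis, 4 fell and S1pr1 rose. Ltb4r1, the receptor for the attractant leukotriene B4, stood at 85.9, 113, 99.4 and 70.3 RPKM in the Cre only libraries and 34.2, 33.5, 35.5 and 33.3 RPKM in the Ikzf1 KO libraries, a change of -1.40 ± 0.13 (adjusted p = 0.000304), with Ikzf1 KO libraries within 3 RPKM of each other. S1pr4 fell from 58 ± 5.56 to 35 ± 2.51 RPKM and P2ry10, a receptor for lysophospholipids, from 34.8 ± 5.51 to 19 ± 2.39 RPKM. S1pr1, the sphingosine 1-phosphate receptor that lymphocytes use to leave lymphoid tissue, rose from 0.708 ± 0.407 to 2.17 ± 0.567 RPKM (1.19 ± 0.25, adjusted p = 0.0125), at levels near the filter. Klf2, a transcription factor known to maintain S1pr1, rose too, at 3.26, 2.87, 5.99 and 5.93 RPKM in the Cre only libraries and 12.1, 10.8, 10.4 and 14.2 RPKM in the Ikzf1 KO libraries, a change of 1.36 ± 0.23 (adjusted p = 0.00431). Here S16 and S17 were lower than S18 and S19, and the highest Cre only library was below the lowest Ikzf1 KO library. Of 17 tested regulators of actin and small GTPases 6 fell, with Cnn2 (calponin 2) from 337 ± 44.5 to 178 ± 36.3 RPKM and Rhof, a GTPase of filopodia, from 56.7 ± 9.17 to 33 ± 1.87 RPKM. Fgd5 and Arhgap31 rose. Falls among egress and chemotactic receptors numbered 2 with all 15 libraries in the fit and 7 with S18 and S19 both left out. The median of these receptors was -0.25, and -0.02 when S16 and S17 were left out but -0.61 when S18 and S19 were. Falls among regulators of actin and GTPases numbered 3 with all 15 libraries in the fit. Arhgap31 (without S12, S13, S14, S15, S16 or S17) did not pass when 1 library was left out (adjusted p up to 0.118). P2ry10, S1pr1 and Arhgap31 did not pass with all 15 libraries in the fit (adjusted p from 0.0749 to 0.136). Arhgap31 did not pass after quantile normalization or without S16 and S17 either (adjusted p up to 0.158). S1pr1 changed by 0.75 without S18 and S19 and Arhgap31 by 0.32 without S16 and S17.

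Of 18 tested genes of IL-2 and IL-15 receptor signalling, 8 fell, 2 rose and 8 did not pass, with a median of -0.19. Falls among IL-2 and IL-15 signalling genes numbered 2 with all 15 libraries in the fit, 4 without S14 or with S16 and S17 both left out and 5 without S12, S13, S16 or S18. Jak1 stood at 155, 159, 136 and 129 RPKM in the Cre only libraries and 105, 106, 105 and 105 RPKM in the Ikzf1 KO libraries, a change of -0.46 ± 0.08 (adjusted p = 0.005), and its Ikzf1 KO values were almost equal. Jak3 fell from 74.9 ± 10.1 to 47.1 ± 7.27 RPKM and the shared receptor chain Il2rg from 175 ± 15.1 to 136 ± 7.98 RPKM. The kinase gene Pim2, a STAT5 target, fell from 70.6 ± 26.6 to 29.1 ± 19.7 RPKM (-1.37 ± 0.40, adjusted p = 0.0412), although S15 lay among the Cre only libraries. Cish, a feedback inhibitor of this pathway, fell from 41.1 ± 3.14 to 28.1 ± 4.97 RPKM, and the survival gene Bcl2 from 62.1 ± 6.45 to 44.2 ± 5.18 RPKM. The feedback inhibitors Socs2 and Socs3 rose, Socs2 from 6.41 ± 0.477 to 9.35 ± 0.623 RPKM. Stat5a and Stat5b did not pass, with changes of 0.23 and 0.22. Il2rg (without S14) and Pim2 (without S12, S13, S14, S16, S18 or S19) did not pass when 1 library was left out (adjusted p up to 0.11). Jak1, Il2rg, Cish, Bcl2 and Socs2 did not pass with all 15 libraries in the fit (adjusted p from 0.136 to 0.694). Il2rg and Bcl2 without S16 and S17 and Pim2 without S18 and S19 did not pass either (adjusted p up to 0.227). Pim2 changed by -0.89 without S18 and S19.

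Of 24 tested regulators of the mitogen-activated protein kinase pathway and of phosphatases, 12 fell, Inpp4b rose and 11 did not pass, with a median of -0.39. Falls among kinase and phosphatase regulators numbered 5 with all 15 libraries in the fit and 6 without S13 or S14. Dusp6, the phosphatase that removes ERK phosphorylation, stood at 88, 97.4, 79.9 and 57.6 RPKM in the Cre only libraries and 33.5, 30.7, 36.1 and 34.7 RPKM in the Ikzf1 KO libraries, a change of -1.22 ± 0.15 (adjusted p = 0.00109). Spred2, a membrane inhibitor of the same pathway, fell from 16.2 ± 2.46 to 8.53 ± 0.865 RPKM, and Dusp5 from 109 ± 26.7 to 64.6 ± 5.51 RPKM. Rasgrp4, a Ras exchange factor, fell from 10.5 ± 1.63 to 5.28 ± 1.08 RPKM. Ptprc (CD45), the phosphatase of the leukocyte surface, stood at 96.6, 95.3, 101 and 95.8 RPKM in the Cre only libraries and 61.1, 71.7, 65.6 and 73.7 RPKM in the Ikzf1 KO libraries (-0.52 ± 0.07, adjusted p = 0.00235). At Dusp6 and Ptprc every Cre only library lay above every Ikzf1 KO library. Of 22 tested NF-kB pathway genes 6 fell and none rose, led in size by Bcl3, a nuclear cofactor, from 30.3 ± 13.4 to 12.1 ± 1.22 RPKM. The AP-1 genes Jun and Fosl2 fell from 44 ± 9.45 to 29.1 ± 1.49 RPKM and from 9.79 ± 3.65 to 4.65 ± 1.08 RPKM, while the other 11 of 13 tested AP-1 genes did not pass. Thus 15.4% of AP-1 genes changed, against 20.2% over all genes. Falls among NF-kB pathway genes numbered 0 with all 15 libraries in the fit, 2 with S16 and S17 both left out, 3 without S13 or S14 and 10 with S18 and S19 both left out or with a term for S15, S18 and S19. Falls among AP-1 genes numbered 0 without S13 or S14 or with all 15 libraries in the fit, 1 without S16 or S17 or with S16 and S17 both left out and 5 with S18 and S19 both left out or with a term for S15, S18 and S19. Dusp5 (without S13), Jun (without S13 or S14) and Fosl2 (without S12, S13, S14, S15, S16, S17 or S18) did not pass when 1 library was left out (adjusted p up to 0.0735). Dusp5, Bcl3, Jun and Fosl2 did not pass with all 15 libraries in the fit (adjusted p from 0.0576 to 0.267). Fosl2 did not pass without S16 and S17 (adjusted p up to 0.112). Dusp5 changed by -0.45 without S16 and S17, Bcl3 by -0.65 without S16 and S17 and Fosl2 by -0.57 without S16 and S17.

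Among secreted signals, 7 of 17 tested chemokine and cytokine genes fell and Ccl9 rose, with a median of -0.54. Without S16 and S17 that median was -0.41, and without S18 and S19 -0.99. Falls among chemokine and cytokine genes numbered 2 with all 15 libraries in the fit, 4 without S12 or S13 and 11 with a term for S15, S18 and S19. Rises among chemokine and cytokine genes numbered 3 with S16 and S17 both left out. Ccl5, the chemokine RANTES, stood at 684, 689.6, 801 and 580.4 RPKM in the Cre only libraries and 278, 209, 264 and 333 RPKM in the Ikzf1 KO libraries, a change of -1.35 ± 0.14 (adjusted p = 0.000583). Ifng, Ccl3, Ccl4, Xcl1 and Csf2 did not pass, with changes of -1.40, -0.54, -0.71, 0.00 and -0.87. Of 18 tested cytokine receptors, 3 rose and 4 fell. Both chains of the interleukin 12 receptor changed, in opposite directions. Il12rb2, the signalling chain that recruits STAT4, rose, at 194, 213, 187 and 154 RPKM in the Cre only libraries and 360.2, 349.6, 352 and 392 RPKM in the Ikzf1 KO libraries (0.96 ± 0.10, adjusted p = 0.000508). Il12rb1, the chain shared with the interleukin 23 receptor, fell, at 109, 136, 97.9 and 88.7 RPKM in the Cre only libraries and 63.7, 54.6, 58.7 and 61.8 RPKM in the Ikzf1 KO libraries (-0.83 ± 0.12, adjusted p = 0.00281). In neither did a library of one group reach the other. Il27ra fell from 73.3 ± 25.4 to 40.3 ± 4.9 RPKM. Il27ra (without S12, S13, S14, S15, S16 or S17) did not pass when 1 library was left out (adjusted p up to 0.102). Il27ra did not pass with all 15 libraries in the fit (adjusted p = 0.127). Il27ra did not pass without S16 and S17 (adjusted p up to 0.0789). Il27ra changed by -0.35 without S16 and S17 but -1.24 without S18 and S19. Of these 5 genes, Ifng, Ccl3, Ccl4 and Csf2 passed when S18 and S19 were both left out (adjusted p from 0.000441 to 0.0282) and with the term for S15, S18 and S19 (0.00113 to 0.0107), and Ifng also without S19 alone (0.0138). Falls among cytokine receptors numbered 1 with all 15 libraries in the fit and 8 with S18 and S19 both left out.

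The TGF-beta family changed at ligands, receptors and regulators, and the Notch pathway at genes other than its receptors. Of 16 tested genes of the TGF-beta and activin pathway, 6 fell and 4 rose. The ligand gene Tgfb1 fell from 109 ± 12.4 to 78.3 ± 13.5 RPKM and Tgfb3 from 7.76 ± 1.54 to 4.07 ± 0.562 RPKM. The receptor gene Tgfbr1 fell from 24.6 ± 2.77 to 16.5 ± 2.17 RPKM and Tgfbr2 from 59.4 ± 15.1 to 30.7 ± 6.4 RPKM. The signal transducer Smad3 fell from 21.1 ± 3.2 to 9.75 ± 3.61 RPKM and the inhibitor Smad7 from 8.56 ± 0.616 to 5.24 ± 0.263 RPKM. The rises were receptors for activins and bone morphogenetic proteins at low levels, Acvr1, Acvr2b and Bmpr2, and endoglin. Falls among TGF-beta and activin genes numbered 2 with all 15 libraries in the fit. Rises among TGF-beta and activin genes numbered 2 without S12, S14, S18 or S19 or with S18 and S19 both left out or with all 15 libraries in the fit. Of 15 tested Notch pathway genes 4 fell and Nrarp rose. Falls among Notch pathway genes numbered 2 without S14, S17 or S18 or with all 15 libraries in the fit. Mfng and Lfng, glycosyltransferases that tune Notch receptors, fell from 28.8 ± 4.88 to 14.9 ± 0.873 RPKM and from 155 ± 24.8 to 98 ± 8.51 RPKM. Nrarp, a feedback inhibitor and Notch target, rose from 2.92 ± 1.27 to 8.17 ± 2.27 RPKM (1.38 ± 0.26, adjusted p = 0.00775), with S15 and, in Cre only cells, S19 the highest. The receptors Notch1 and Notch2 did not pass (-0.53 and 0.23). Notch1 passed without S12 or S16 or without S16 and S17 (adjusted p down to 0.0234). Tgfb1 (without S12, S13, S14 or S18), Acvr1 (without S12, S14, S15, S16, S18 or S19) and Bmpr2 (without S12, S13, S14, S18 or S19) did not pass when 1 library was left out (adjusted p up to 0.121). Tgfb1, Tgfb3, Tgfbr1, Smad7, Acvr1 and Bmpr2 did not pass with all 15 libraries in the fit (adjusted p from 0.0726 to 0.267). Tgfb1, Acvr1 and Bmpr2 did not pass without S18 and S19 (adjusted p up to 0.141). Acvr2b changed by 1.94 with a pseudocount of 0.1 and Bmpr2 by 0.39 without S18 and S19.

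The number of cell cycle genes called higher depended on which libraries were used. Of 44 tested genes of mitosis and the spindle checkpoint, 22 rose, Pttg1 fell and 21 did not pass, with a median of 0.83. Of 35 tested genes of replication and S phase, 20 rose, none fell and 15 did not pass, with a median of 0.66. Bub1b, of the spindle checkpoint, stood at 26.3, 20.6, 31.3 and 45 RPKM in the Cre only libraries and 64.2, 62.3, 59 and 52 RPKM in the Ikzf1 KO libraries (0.99 ± 0.20, adjusted p = 0.0108), and Pole2, a subunit of DNA polymerase epsilon, at 5.67, 4.58, 4.38 and 5.37 RPKM in the Cre only libraries and 9.22, 10.3, 10.8 and 8.04 RPKM in the Ikzf1 KO libraries (0.87 ± 0.12, adjusted p = 0.00162). At Bub1b S19 was the highest Cre only library and S15 the lowest Ikzf1 KO library, without overlap. Spc24, a kinetochore protein gene, rose from 18.4 ± 6.44 to 35.5 ± 2.01 RPKM, and Rfc3, a subunit of the clamp loader of replication, from 8.06 ± 2.26 to 15.3 ± 0.709 RPKM. Rises among mitosis genes numbered 5 without S14, 6 without S12 or S13, 7 without S18, 8 without S16 or with S16 and S17 both left out, 12 without S15, 13 without S17, 41 with a term for S15, S18 and S19 and 43 without S19 or with S18 and S19 both left out. Rises among replication genes numbered 3 with all 15 libraries in the fit, 6 without S13 or with S16 and S17 both left out, 7 without S14 or S18, 8 without S12, 10 without S15, S16 or S17, 34 with S18 and S19 both left out and 35 without S19. The median of mitosis genes was 0.41 when S16 and S17 were left out but 1.26 when S18 and S19 were, and that of replication genes 0.40 and 0.85. Changes were above 0 in 43 of 44 mitosis genes and in 35 of 35 replication genes. With all 15 libraries in the fit 20 mitosis genes rose. Over all 9527 genes tested 882 rose. That number was 436 without S14, 450 without S12, 501 without S13 and 589 without S18. It was 1234 without S19 and 327 with all 15 libraries in the fit. Of 17 tested cyclins and CDK inhibitors 3 rose and 14 did not pass, with a median of 0.23 and 7 changes below 0. Thus 17.6% of them changed, against 20.2% over all genes. Rises among cyclins and CDK inhibitors numbered 0 without S12 or S14, 1 without S13 or S18 or with S16 and S17 both left out or with all 15 libraries in the fit, 6 with S18 and S19 both left out and 7 without S19. Cdkn2a, the locus of the inhibitors p16 and p19, rose from 12.9 ± 5.41 to 25.5 ± 3.64 RPKM. Of the 30 tested genes of ribosome biogenesis and MYC targets, Odc1, the first enzyme of polyamine synthesis, rose from 105 ± 25.9 to 186 ± 29.6 RPKM, Mycn fell from 16.1 ± 4.49 to 6.86 ± 0.679 RPKM, and Myc itself did not pass (-0.24 ± 0.19, adjusted p = 0.385). Myc passed with array weights (adjusted p down to 0.0147). Cdkn2a (without S12, S14 or S16), Odc1 (without S12) and Pttg1 (without S12, S14, S15, S16, S17, S18 or S19) did not pass when 1 library was left out (adjusted p up to 0.0892). Cdkn2a, Odc1, Mycn and Pttg1 did not pass with all 15 libraries in the fit (adjusted p from 0.0892 to 0.383). Pttg1 did not pass without S16 and S17 or without S18 and S19 either (adjusted p up to 0.077). Bub1b changed by 0.65 without S16 and S17, Cdkn2a by 0.56 without S16 and S17 and Odc1 by 0.53 without S18 and S19.

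Of 28 tested genes of glycolysis and the hypoxia response, 13 fell, none rose and 15 did not pass, with a median of -0.53. Pfkp, an isoform of phosphofructokinase, stood at 69.6, 76.8, 44.3 and 45.3 RPKM in the Cre only libraries and 26.6, 26.9, 26.8 and 33 RPKM in the Ikzf1 KO libraries (-1.01 ± 0.18, adjusted p = 0.00666), and Gpi1, glucose phosphate isomerase, at 354, 397, 302 and 230.0 RPKM in the Cre only libraries and 160.1, 169, 170.0 and 200.1 RPKM in the Ikzf1 KO libraries (-0.85 ± 0.16, adjusted p = 0.00711). S16 and S17 were the highest in both, and S15 was the highest of the Ikzf1 KO libraries. Hif1a, the oxygen-regulated factor that drives many of these genes, fell from 25.9 ± 1.36 to 18.1 ± 1.05 RPKM, with little spread. Gapdh fell from 567 ± 69.1 to 404 ± 24.4 RPKM and Ldha, lactate dehydrogenase A, from 1162 ± 264 to 781 ± 59.5 RPKM. Falls among glycolysis and hypoxia genes numbered 0 with all 15 libraries in the fit, 7 without S12 or with S16 and S17 both left out, 8 without S13, S14 or S16, 22 with S18 and S19 both left out and 24 with a term for S15, S18 and S19. The median was -0.28 when S16 and S17 were left out but -1.29 when S18 and S19 were. Of 29 tested genes of oxidative phosphorylation 4 rose and none fell (13.8% changed, against 20.2% over all genes), with a median of 0.15. Rises among oxidative phosphorylation genes numbered 0 with all 15 libraries in the fit, 1 without S12 or S14, 2 without S13, S16, S17 or S18 or with S16 and S17 both left out, 8 with a term for S15, S18 and S19 and 9 without S19 or with S18 and S19 both left out. In cholesterol and fatty acid synthesis, 6 of 25 tested genes fell. Falls among cholesterol and fatty acid genes numbered 0 without S12, S13 or S14 or with all 15 libraries in the fit, 1 without S18, 2 without S17 or S19 or with S18 and S19 both left out, 3 without S16, 15 with a term for S15, S18 and S19 and 18 without S15. Scd1, the desaturase that makes oleate, rose against the list, at 5.41, 6.8, 8.69 and 3.54 RPKM in the Cre only libraries and 26.1, 30.9, 26.4 and 31.7 RPKM in the Ikzf1 KO libraries, a change of 2.21 ± 0.22 (adjusted p = 0.00041). Ldha (without S12, S13, S14 or S16) did not pass when 1 library was left out (adjusted p up to 0.0889). Pfkp, Gpi1, Hif1a, Gapdh, Ldha and Scd1 did not pass with all 15 libraries in the fit (adjusted p from 0.0592 to 0.411). Ldha did not pass without S16 and S17 (adjusted p up to 0.0732). Pfkp changed by -0.66 without S16 and S17 and Ldha by -0.28 without S16 and S17.

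**Figure D4:**
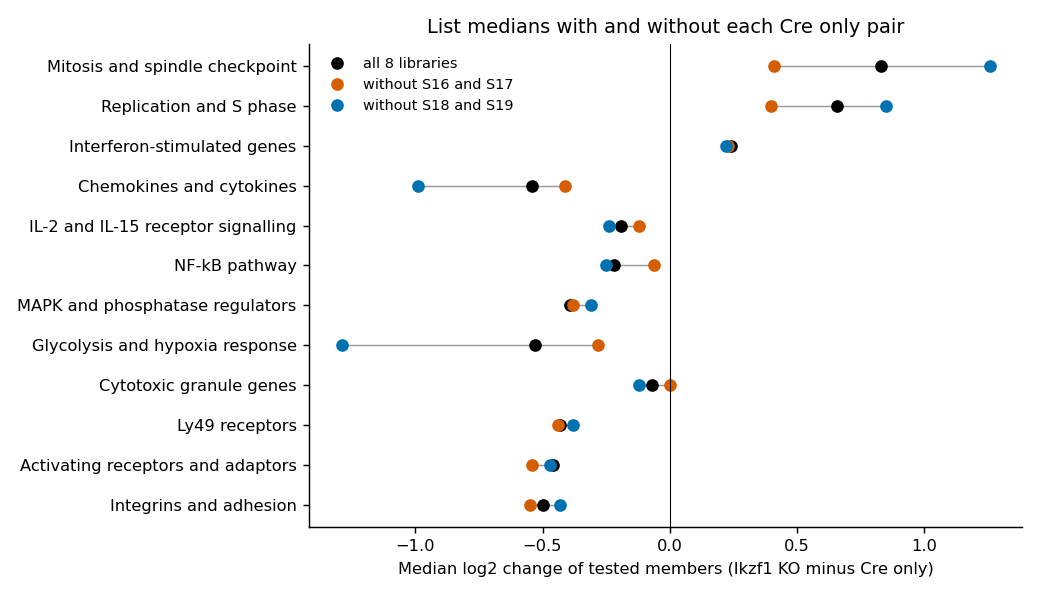
Median log2 change of the tested members of 12 gene lists with all 8 libraries (black), without S16 and S17 (orange) and without S18 and S19 (blue); the horizontal axis is Ikzf1 KO minus Cre only on log2(RPKM + 0.5). The medians of mitosis, replication, chemokine and glycolysis genes move apart between the Cre only pairs, and those of integrins, activating receptors and MAPK regulators stay close together.

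Of 30 tested interferon-stimulated genes, 6 rose, 2 fell and 22 did not pass, with a median of 0.24. Oasl2, of the oligoadenylate synthetase family, stood at 0.803, 0.789, 0.408 and 0.345 RPKM in the Cre only libraries and 6.51, 10.3, 6.99 and 4.31 RPKM in the Ikzf1 KO libraries, a change of 2.76 ± 0.25 (adjusted p = 0.00026), and Oas1a at 6.05, 6.71, 4.96 and 3.18 RPKM in the Cre only libraries and 14.4, 22.8, 15.3 and 11.4 RPKM in the Ikzf1 KO libraries, a change of 1.52 ± 0.25 (adjusted p = 0.00381). S13 was the highest Ikzf1 KO library and S15 the lowest in both. Bst2 (tetherin), which holds virus particles at the cell surface, rose from 52.7 ± 6.66 to 90.5 ± 14.6 RPKM, and Ifih1 (MDA5), a sensor of viral RNA, from 4.62 ± 0.647 to 7.76 ± 1.33 RPKM. Iigp1, an immunity-related GTPase, rose from 2.28 ± 1.46 to 7.45 ± 2.28 RPKM. Isg15, Irf7 and Ifit1 did not pass, with changes of -0.04, 0.11 and 0.64. Beside Ifitm3, its neighbour Ifitm1 rose, at 387, 459, 277 and 106 RPKM in the Cre only libraries and 903, 1006, 868 and 742 RPKM in the Ikzf1 KO libraries (1.70 ± 0.39, adjusted p = 0.017), and Ifitm2 did not pass (1.27 ± 0.50, adjusted p = 0.101). S19 was the lowest Cre only library at Ifitm1. Of the 4 tested Ifitm genes, Ifitm10 fell, though not with all 15 libraries in the fit. Of the Schlafen genes, Slfn9 rose from 7.08 ± 1.3 to 17.3 ± 2.07 RPKM and the adjacent Slfn8 fell from 18.4 ± 1.11 to 12.6 ± 1.74 RPKM. In MHC class I presentation 3 of 21 tested genes rose and 3 fell, against 9.26% and 11% over all genes, with Tap1, a peptide transporter subunit, rising from 63.5 ± 1.35 to 76.7 ± 4.75 RPKM and Tapbpl, a peptide editor, falling from 32.5 ± 1.17 to 24.4 ± 1.18 RPKM. Falls among interferon-stimulated genes numbered 0 with all 15 libraries in the fit, 1 without S12, S13, S14, S16 or S19 and 4 with a term for S15, S18 and S19. Rises among interferon-stimulated genes numbered 3 with all 15 libraries in the fit. Falls among MHC class I presentation genes numbered 0 with all 15 libraries in the fit, 1 without S12 or S14 or with S16 and S17 both left out, 5 without S19 and 7 with S18 and S19 both left out. Rises among MHC class I presentation genes numbered 0 with all 15 libraries in the fit and 1 without S12, S13 or S14. Ifitm2 passed without S17 or without S16 and S17 (adjusted p down to 0.00379). Iigp1 (without S13 or S14), Ifitm1 (without S12 or S13) and Tap1 (without S12, S13, S14 or S16) did not pass when 1 library was left out (adjusted p up to 0.0729). Bst2, Iigp1, Slfn8, Tap1 and Tapbpl did not pass with all 15 libraries in the fit (adjusted p from 0.0516 to 0.664). Tap1 did not pass without S16 and S17 (adjusted p up to 0.0596). Iigp1 changed by 1.00 without S18 and S19 and Ifitm1 by 1.05 without S18 and S19.

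Markers of NK maturation did not move to one side. Of 14 tested genes of mature NK cells, 6 fell (Itgam, Itgax, Itgb2, Prf1, S100a4 and S100a6) and 4 rose (Klrg1, Klrb1b, Gzma and Cma1). Rises among mature NK genes numbered 2 without S13 or S14 or with all 15 libraries in the fit. Of 14 tested genes of immature NK cells, 4 fell (Cd27, Ltb, Cd7 and Cxcr3) and 2 rose (Myb and Socs2). Falls among immature NK genes numbered 2 with all 15 libraries in the fit. Of 19 tested lineage factors, Rora rose, Runx3 fell and 17 did not pass (10.5% changed, against 20.2% over all genes). Falls among lineage factors numbered 0 without S12, S13, S14, S16, S17 or S18 or with all 15 libraries in the fit, 4 without S19 or with S18 and S19 both left out and 5 with a term for S15, S18 and S19. Rises among lineage factors numbered 0 without S12, S13, S14, S17 or S18 or with S18 and S19 both left out or with all 15 libraries in the fit and 3 with S16 and S17 both left out. Runx3, a factor of cytotoxic lymphocytes, stood at 51.3, 57.9, 51 and 53.4 RPKM in the Cre only libraries and 40.9, 34.4, 34.3 and 49 RPKM in the Ikzf1 KO libraries (-0.44 ± 0.12, adjusted p = 0.0298), with S15 close to Cre only libraries. Eomes and Tbx21 had changes of -0.17 ± 0.07 (adjusted p = 0.136) and 0.04 ± 0.10 (adjusted p = 0.782). Of 13 tested genes known from type 1 innate lymphoid cells, 4 rose, Ltb fell and 8 did not pass, with a median of 0. In this list 2 rose without S12, S13, S14 or S18 or with all 15 libraries in the fit. With S16 and S17 both left out 2 fell, and with S18 and S19 both left out 6 fell. Among the rises, Tmem176a and Tmem176b lie within 13 kb on chromosome 6. They rose from 29.9 ± 21 to 106 ± 8.67 RPKM and from 72.2 ± 53.9 to 249.6 ± 15.8 RPKM. In Cre only cells S16 and S17 were several times above S18 and S19 at Tmem176b, at 116, 121, 32.4 and 19.1 RPKM. In the BCL-2 family and cell death list 6 of 26 fell and 2 rose, against 11% and 9.26% over all genes. Bmf, which promotes death by binding BCL-2 proteins, rose, at 3.99, 3.44, 7.8 and 6.18 RPKM in the Cre only libraries and 16.5, 15.6, 17.2 and 21.2 RPKM in the Ikzf1 KO libraries, a change of 1.69 ± 0.22 (adjusted p = 0.00167). Bid, another member that promotes death, fell from 8.36 ± 1.77 to 3.26 ± 1.21 RPKM (-1.27 ± 0.22, adjusted p = 0.00539), and the survival gene Bcl2l1 (BCL-XL) from 34.4 ± 3.09 to 23.6 ± 1.56 RPKM. Falls among BCL-2 and cell death genes numbered 1 with all 15 libraries in the fit and 3 with S16 and S17 both left out. Runx3 (without S12, S13, S14, S16, S17 or S18), Rora (without S12, S13, S14, S17 or S18) and Tmem176b (without S12, S13, S14 or S18) did not pass when 1 library was left out (adjusted p up to 0.0957). Runx3, Rora, Bcl2l1, Cd7, Cxcr3 and Myb did not pass with all 15 libraries in the fit (adjusted p from 0.0745 to 0.427). Runx3 without S16 and S17 and Rora without S18 and S19 did not pass either (adjusted p up to 0.0891). Tmem176a changed by 1.13 without S18 and S19 and Tmem176b by 3.30 without S16 and S17 but 1.07 without S18 and S19.

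In some lists few genes or none changed. Of 19 tested genes of the unfolded protein response and chaperones none passed with all 8 libraries in limma, and 2 did at an unadjusted p below 0.05. Falls among chaperone genes numbered 4 with a term for S15, S18 and S19 and 13 with S18 and S19 both left out. Among the most abundant transcripts, Actb, the beta-actin gene, fell from 4320 ± 277 to 3012 ± 312 RPKM and B2m, the light chain of MHC class I, from 3143 ± 222 to 2491 ± 189.7 RPKM. Of 16 tested p53 targets Sesn2 rose from 10.7 ± 1.97 to 14.5 ± 1.52 RPKM and 15 did not pass. B2m (without S12 or S14) and Sesn2 (without S12, S13, S14, S15, S16, S17 or S19) did not pass when 1 library was left out (adjusted p up to 0.121). Actb, B2m and Sesn2 did not pass with all 15 libraries in the fit (adjusted p from 0.164 to 0.449). Actb and B2m after quantile normalization, B2m and Sesn2 without S16 and S17 and Sesn2 without the variance trend and robust moderation did not pass either (adjusted p up to 0.874). Actb changed by -0.24 after quantile normalization and Sesn2 by 0.26 without S16 and S17. The change of B2m was 0.026 after quantile normalization, against -0.34 in the fit reported.

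Other cells that a spleen sort could carry were followed by lists of their markers. Of 21 T cell markers 14 were tested, of which 14.3% changed, against 20.2% over all genes. None rose, 2 fell (Icos and Trdc), and their summed RPKM ranged from 693 to 1021 in Cre only and from 720.0 to 839 in Ikzf1 KO libraries, most of it from Trbc1, Lck and Trbc2, which NK cells also transcribe. Cd4, Cd8a, Cd6 and Themis were below the filter. The CD3 gene Cd3g stood at 46.9, 49.1, 24.8 and 8.01 RPKM in the Cre only libraries and 16.7, 21, 23.9 and 6.79 RPKM in the Ikzf1 KO libraries, lower in S18, S19 and every Ikzf1 KO library than in S16 and S17, and Cd3d at 20.4, 23.9, 6.75 and 2.97 RPKM in the Cre only libraries and 19.2, 24.5, 26.8 and 8.25 RPKM in the Ikzf1 KO libraries. Falls among T cell markers numbered 1 without S12, S14, S16 or S17 or with S16 and S17 both left out or with all 15 libraries in the fit, 4 without S19, 6 with a term for S15, S18 and S19 and 8 with S18 and S19 both left out. With S16 left out 1 T cell marker rose, and with S16 and S17 both left out 2 rose, Cd3d among them. Of 19 B cell markers 3 were tested (summed RPKM of 22.3 to 41.7 in Cre only and 29.7 to 49.9 in Ikzf1 KO libraries, mainly Ighm), and Cd79b rose from 0.308 ± 0.162 to 1.21 ± 0.327 RPKM. Of 22 monocyte and macrophage markers 5 were tested (summed 157 to 193 and 134 to 159 RPKM, mainly Ccr2), with Cd14 and Fcgr4 higher and Hmox1 lower, all at low levels, and Lyz2 was at 0 in every Cre only library. Of 14 dendritic cell markers 4 were tested (summed 138 to 161 and 129 to 156 RPKM), with Bst2 and Clec10a higher and Itgax and Xcr1 lower. The neutrophil list had only Ctsg (higher) and Mmp9 (lower) among its 17 genes in the test (summed 26.9 to 98.8 and 16.4 to 23.3 RPKM), and its other members, S100a8, S100a9, Elane and Mpo among them, were not analysed here. Of 18 mast cell and basophil markers 5 were tested (summed 93.2 to 202 and 147 to 217 RPKM, mainly Kit and Mcpt8), with Cma1 higher and Cpa3 lower, from 5.71 ± 1.47 to 2.59 ± 0.505 RPKM. The platelet gene Pf4 was at 0 in all 8 libraries, and of the stromal and endothelial markers only Pecam1 was tested (0.28 ± 0.16, adjusted p = 0.248). The part of other cells in the results was not tested. Trdc (without S12, S14, S16 or S17) did not pass when 1 library was left out (adjusted p up to 0.0733). Trdc and Cpa3 did not pass with all 15 libraries in the fit (adjusted p from 0.107 to 0.447). Trdc did not pass without S16 and S17 (adjusted p up to 0.104). Trdc changed by -0.26 without S16 and S17, Cd79b by 1.73 with a pseudocount of 0.1 and Cd14 by 2.23 with a pseudocount of 0.1. Cd3g passed without S18 and S19 or with a term for S15, S18 and S19, Cd3d without S16 and S17, and Pecam1 without S15 or with array weights (adjusted p down to 0.0106).

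Levels of the leading genes in the other knockouts are given side by side, without a test, since those comparisons would share the Cre only libraries. B4galnt2 stood at 0.738 ± 0.813 RPKM in Ikzf3 KO (n = 4) and 4.75 ± 1.6 RPKM in DKO cells (n = 3), against 0.66 ± 0.336 in Cre only and 15.9 ± 3.33 in Ikzf1 KO cells. Ctsg stood at 50.1 ± 19.2 RPKM in Ikzf3 KO and 16.9 ± 12.1 RPKM in DKO cells, and Nrp1 at 2.83 ± 1.04 and 10.3 ± 4.05 RPKM. Ctsg was above the Cre only libraries in all 3 kinds of knockout, and its DKO values ranged widely, from 2.99 RPKM in one library to 24.9 RPKM in another. All Ikzf3 KO libraries were below all Ikzf1 KO libraries at Nrp1 and above them at Ctsg. Among genes that fell, Jaml stood at 3.26 ± 0.974 RPKM in Ikzf3 KO and 8.1 ± 2.52 RPKM in DKO cells, and Dmwd at 20.3 ± 8.92 and 0.398 ± 0.369 RPKM. Prf1 stood at 671 ± 379 RPKM in Ikzf3 KO and 35.5 ± 28.6 RPKM in DKO cells, and Ltb at 91 ± 67.2 and 88.1 ± 13.9 RPKM. Ikzf4 stood at 0.628 ± 0.581 and 3.81 ± 0.701 RPKM and Ikzf2 at 3.75 ± 1.68 and 22.3 ± 4.81 RPKM in Ikzf3 KO and DKO cells. Itgal stood at 112 ± 26.2 and 149 ± 9.06 RPKM, Dusp6 at 45.5 ± 22 and 29.2 ± 9.93 RPKM and Il12rb2 at 133 ± 39.3 and 147 ± 20.2 RPKM in the same order.

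**Figure D5:**
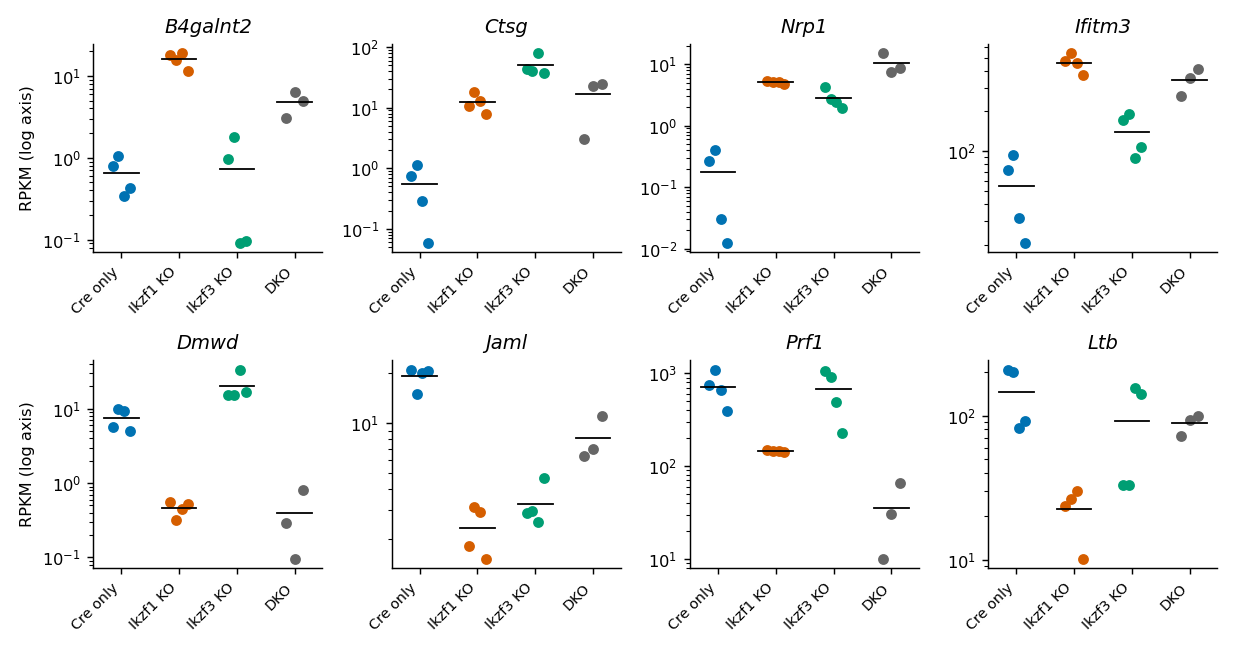
RPKM per library of 8 leading genes in the 4 cultured groups, on log axes. Columns are Cre only, Ikzf1 KO and Ikzf3 KO (4 libraries each) and DKO (3 libraries), and short lines are group means. Prf1 is lower in Ikzf1 KO than in Cre only libraries, and the Ikzf1 KO levels of Nrp1 lie above those of Cre only and Ikzf3 KO libraries.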

How the data were processed

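RNA of sorted mouse splenic NK cells was sequenced as 75-base single reads from a directional kit, per the labels. The authors' deposited table gives RPKM per gene, from STAR, featureCounts and limma 3.34.9 on mm10, per the submitters' processing notes; which filter left 11736 genes is not given in the sources used here. The 4 Cre only and 4 Ikzf1 KO columns were assigned by genotype and by the number of columns. RPKM is not a count, so log2(RPKM + 0.5) was tested with limma 3.58.1 (R 4.3.3; variance trend, robust moderation, 6 residual degrees of freedom, two-sided) in genes with 1 RPKM or more in at least 3 libraries, with Benjamini-Hochberg adjustment over 9527 genes and a threshold of 0.05. The fit was tested on simulated data with independent libraries. These held no Cre only pairs and no library like S15, so the simulation cannot speak to those. With 4 libraries against 4, an exact test cannot go below p = 0.0286.

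Genes were named by rule: the 15 largest rises and 15 largest falls among called genes without overlap between groups and with a mean of 5 RPKM or more in the higher group, leaving out predicted genes and receptor segments, the Ikaros family, the 8 most abundant called genes of each direction, up to 4 members of each of 61 lists, other cell markers with a mean of 5 RPKM or more, and up to 6 genes whose call ends without 1 library. Some genes that the rule names are not reported here. Genes named outside it were chosen after their values were seen. Members and lists were chosen with earlier results of these data known. 21 other settings were tried.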

Additional observations from a re-analysis of the deposited data

Results flagged for a closer look

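In some groups of 4 libraries a single library lay far from the rest: its gap to the nearest library, divided by the range of the group, was above Dixon's critical value for 4 values. This was the case in 25 of 384 groups of the 192 genes named, and chance flags about 1 in 20 groups. Most were in 1 library, S15 of the Ikzf1 KO group, with 18 of the 25. Values are given with the range of the other 3 libraries of the group.

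S15 was above the other Ikzf1 KO libraries at Anxa2 (251 RPKM against 199 to 206), Cd247 (14.4 RPKM against 8.49 to 8.83), Cish (35.5 RPKM against 24.6 to 26.3), Lat2 (13.9 RPKM against 10.2 to 10.7), Pfkp (33 RPKM against 26.6 to 26.9) and Pim2 (58.6 RPKM against 17.7 to 20.5). It was also above them at Ptgs1 (11.3 RPKM against 5.42 to 6.29), Rasgrp4 (6.88 RPKM against 4.56 to 4.94), Smad3 (15.1 RPKM against 7.51 to 8.55), Tgfbr2 (40.3 RPKM against 27.4 to 27.7), Trpv2 (19 RPKM against 9.64 to 11) and Tyrobp (731 RPKM against 627 to 637). In Cd247, Lat2 and Tyrobp, receptor adaptors, and in Tgfbr2 and Smad3, of TGF-beta signalling, this brought S15 nearer to the Cre only level. S15 was below the others at Alox5 (3.01 RPKM against 6.02 to 6.48), Eng (2.37 RPKM against 4.00 to 4.27), Fosl2 (3.04 RPKM against 4.94 to 5.31), Odc1 (142 RPKM against 197 to 205), Pecam1 (34.6 RPKM against 52 to 54.3) and Tmem176a (93.1 RPKM against 109 to 111). At Ptgs1, Fosl2 and Alox5 S15 instead lay farther from the Cre only level than the other Ikzf1 KO libraries.

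S13 was above the other Ikzf1 KO libraries at Bst2 (112 RPKM against 81.6 to 84.4), Ifit1 (3.67 RPKM against 0.807 to 1.15), Isg15 (28.6 RPKM against 16.8 to 18.4) and Tmem119 (0.321 RPKM against 0.0868 to 0.0979). Bst2, Ifit1 and Isg15 are interferon-stimulated genes. S12 was the lowest Ikzf1 KO library at Ncr1 (100.3 RPKM against 115 to 118). Among Cre only libraries, S17 was the lowest at Jaml (15 RPKM against 20.1 to 21.1) and S19 the lowest at Lag3 (67 RPKM, with the other 3 near 106 RPKM).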

How the results depend on the processing

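The count of genes changed (1927; 882 higher and 1045 lower) stayed within 1.5 times under other pseudocounts, scalings, a variance without trend, no filter on low values and a filter on all 8 libraries. It moved to 1284 (531 higher) among genes with a mean of 5 RPKM or more, where fewer genes were tested, to 3802 (1854 higher, 1948 lower) with array weights and to 602 (327 higher, 275 lower) with all 15 libraries in the fit; the cause of the last 2 was not tested. Leaving out 1 library gave 1018 to 2378 changed, 436 to 1234 higher and 582 to 1144 lower. Higher genes numbered 1443 without S18 and S19 and 1364 with a term for S15, S18 and S19, a set found from the data. Of 186 named genes tested, 167 were called, 78 of them under every setting in which they could be tested. Among the called named genes only B2m changed sign, to 0.026 (limma, adjusted p = 0.874) after quantile normalization, and the cause was not tested. Changes of sign were not counted at named genes that were not called, such as Cd3d. No paired analysis was possible because the columns carry no replicate numbers. Values near the filter rest on few reads, so their changes depend on the pseudocount.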

Other observations

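Of 13 tested genes of lipid mediators, 5 rose and 3 fell. Alox5, encoding the 5-lipoxygenase that starts leukotriene synthesis, stood at 12.1, 16.9, 13 and 6.0 RPKM in the Cre only libraries and 6.48, 6.11, 6.02 and 3.01 RPKM in the Ikzf1 KO libraries, a change of -1.04 ± 0.32 (adjusted p = 0.0462). Alox5ap, encoding the protein that presents arachidonic acid to that enzyme, stood at 0.292, 0.191, 0.209 and 0 RPKM in the Cre only libraries and 1.32, 1.22, 1.65 and 2.0 RPKM in the Ikzf1 KO libraries, a change of 1.61 ± 0.19 (adjusted p = 0.00091). Ptgs1 (COX-1), a prostaglandin synthase, rose from 2.84 ± 0.897 to 7.13 ± 2.8 RPKM, and Abcg1, a sterol exporter, from 10.4 ± 2.51 to 20.4 ± 1.16 RPKM. Falls among lipid mediator genes numbered 1 without S12, S13, S14, S16, S17 or S18 or with S16 and S17 both left out or with all 15 libraries in the fit and 5 with S18 and S19 both left out or with a term for S15, S18 and S19. Alox5 (without S12, S13, S14, S15, S16, S17 or S18) did not pass when 1 library was left out (adjusted p up to 0.103). Alox5 did not pass with all 15 libraries in the fit (adjusted p = 0.219). Alox5 did not pass without the variance trend and robust moderation or without S16 and S17 either (adjusted p up to 0.186). Alox5ap changed by 2.73 with a pseudocount of 0.1.

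Of 9 tested genes of tight junctions, scaffolds and polarity, 5 rose and 2 fell. Pard6g, a polarity protein gene, rose from 2.85 ± 0.407 to 7.02 ± 0.701 RPKM, and Tjp1, encoding the scaffold ZO-1, fell from 13 ± 2.96 to 6.19 ± 1.22 RPKM. Of 22 tested glycosyltransferases, 3 rose, led by B4galnt2, and 7 fell, among them Mgat5, which branches N-glycans, from 16.8 ± 3.47 to 9.86 ± 0.617 RPKM. Gcnt2, which branches poly-lactosamine, rose from 8.51 ± 2.85 to 17.2 ± 1.2 RPKM and Gcnt1, which branches O-glycans, fell from 19.9 ± 2.11 to 13.8 ± 0.858 RPKM. Among ion channel genes Kcnj8, a potassium channel subunit, rose from 3.72 ± 0.62 to 8.31 ± 1.45 RPKM, and Trpv2, a cation channel, fell from 25.3 ± 9.96 to 12.5 ± 4.39 RPKM. Falls among junction and polarity genes numbered 1 with all 15 libraries in the fit and 4 with a term for S15, S18 and S19. Rises among junction and polarity genes numbered 3 with all 15 libraries in the fit. Falls among glycosyltransferases numbered 2 without S14, 3 without S12, S13 or S16 and 4 without S18 or with all 15 libraries in the fit. Rises among glycosyltransferases numbered 1 with all 15 libraries in the fit. Trpv2 (without S12, S13, S14, S18 or S19) did not pass when 1 library was left out (adjusted p up to 0.114). Tjp1, Gcnt2 and Trpv2 did not pass with all 15 libraries in the fit (adjusted p from 0.0528 to 0.0597). Trpv2 did not pass without S18 and S19 (adjusted p up to 0.156). Mgat5 changed by -0.47 without S16 and S17, Gcnt2 by 0.64 without S18 and S19 and Trpv2 by -0.53 without S18 and S19.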
